A study of Mus musculus with 6 samples.

Results

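Rab proteins are small GTPases that sit on the membranes of a cell and direct the budding, movement and fusion of transport vesicles. Messenger RNA of the 59 mouse genes whose symbol is Rab followed by a number and at most a letter and a digit was examined, out of 24411 genes listed, and 26 other genes whose symbol starts with Rab (regulators, effectors and relatives) fall outside that naming rule. The files name each gene by its symbol, and all 59 were found in RefSeq on GRCm38. RNA had been sequenced from cultured macrophages of C57BL/6 mice, an inbred strain, which had been derived from monocytes of the bone marrow, and the labels name no mutant allele or other agent. Before culture the monocytes were sorted into cells low for the surface markers LFA1 and Itgam (LFA1-lo Itgam-lo) and cells high for both (LFA1-hi Itgam-hi). Each kind was kept for 7 days in culture, with 20 ng/ml of M-CSF and 10% serum in the medium (M-CSF is macrophage colony-stimulating factor, under which monocytes turn into macrophages), and gave 3 libraries, called LFA1-lo and LFA1-hi here. The sort describes the monocytes put into culture, and no label tells if replicate libraries stand for different mice or dishes. The p-values therefore measure only how far these libraries differ among themselves, which may be technical.

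A Rab protein is active when bound to GTP and idle when bound to GDP. Exchange factors (GEFs) load GTP, GTPase-activating proteins (GAPs, most with a TBC domain) end the active state, and active Rab proteins recruit effectors such as tethers and motors. Each compartment carries its own members: Rab1 between endoplasmic reticulum and Golgi, Rab5 on early endosomes, Rab4 and Rab11 on recycling endosomes, Rab7 on late endosomes and lysosomes, and Rab27a on secretory organelles. Macrophages depend on them to take up, sort and digest particles.

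Between 15191262 and 17614509 expected counts were summed per library, so that 3 counts stood for 0.170 to 0.197 CPM, the counts of a gene per 1000000 counts of its library (per gene, CPM is given here on totals scaled by TMM, as in the fit). Macrophage markers were abundant in TPM, a level per transcript length, scaled to the same total. Their summed level was 31651 to 42497 TPM in LFA1-lo and 26749 to 29758 TPM in LFA1-hi libraries. Most of it was Lyz2, at means of 27774 and 20526 TPM. Of the 9 markers, 5 passed the test as lower in LFA1-hi. Among these 5, Lyz2 passed narrowly (edgeR adjusted p = 0.04996), with CPM values that overlapped between the groups. It passed in 1 of the 6 fits that left out a library. All 18 cell division markers were higher in LFA1-hi, at a summed 1595 to 1799 TPM against 491 to 712 TPM. Of 10 granulocyte markers, 5 could be tested and 3 were lower in LFA1-hi (Ngp, S100a9 and Ltf). The list summed to 97.8 to 109 TPM in LFA1-hi against 154 to 292 TPM in LFA1-lo, and no marker was at 0 in every library. Most of the LFA1-hi sum was Mmp8, at a mean of 75.0 TPM against 82.9 TPM in LFA1-lo. Mmp8 did not pass (log2 fold change -0.12, edgeR adjusted p = 0.837). The osteoclast list summed to 285 TPM in LFA1-lo replicate 2, against 55.9 TPM in the lowest LFA1-lo library and 41.1 to 55.8 TPM in LFA1-hi, with Calcr at 0. Its members went both ways, with Dcstamp (-4.63) and Mmp9 (-6.04) lower and Acp5 (1.82) higher in LFA1-hi on the log2 scale. T cell markers (Cd3d, Cd3e, Cd3g) and 6 of 8 mast cell and basophil markers were at 0 in every library. The dendritic cell list, with Flt3 and Ccr7 at 0, summed to 22.5 to 107 TPM in LFA1-lo and 49.5 to 126 TPM in LFA1-hi, nearly all from Itgax, and the B cell list, with Pax5 at 0, to 1.90 to 6.86 TPM and 4.10 to 5.38 TPM. The stromal list reached 0.46 TPM at most. The platelet list, with Gp9 at 0, summed to 1051 to 1469 TPM against 1231 to 1432 TPM, nearly all from Pf4. The part of these differences in the Rab results was not tested.

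Rab genes differed between the macrophages mostly by being lower in LFA1-hi cells. Of the 59 genes, 44 had enough counts to be tested, and 14 of these (31.8%) passed an adjusted p of 0.05 in edgeR, a share near the 31.7% called among all 11692 tested genes. Of the 44, 12 (27.3%) were lower in LFA1-hi, against a background of 15.6%, and 2 (4.55%) were higher, against 16.1%. Lower were Rab6b, Rab2b, Rab43 and Rab33b of the Golgi, Rab5b of early endosomes, Rab4a, Rab12, Rab11b and Rab10 of recycling and surface delivery, and Rab9, Rab7b and Rab7 of late endosomes and lysosomes. Higher were Rab27a, which docks secretory organelles at the plasma membrane, and Rab1. The changes were small, with 3 of the 14 reaching 2-fold (Rab6b, Rab4a and Rab27a), and the median log2 fold change (LFA1-hi minus LFA1-lo) was -0.125 over the 44 genes and -0.005 over all tested genes. Leaving out 1 library changed these counts and the background together. Without LFA1-lo replicate 2, 15 Rab genes were lower and 4 higher, against backgrounds of 20.5% and 21.8%. With LFA1-hi replicate 1, 2 or 3 left out, 7, 6 and 8 were lower, against 9.84%, 9.21% and 10% of all genes, and 1 each time was higher, against 9.81%, 9.97% and 10.4%. Fewer cells of a type and less RNA per cell cannot be told apart in these bulk libraries.

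Groups did not overlap, meaning that all 3 LFA1-hi CPM values lay on one side of all 3 LFA1-lo values, for 24 of the 44 genes (54.5%), against 47.8% of all tested genes. Of the 44, 18 were lower without overlap and 6 higher without overlap, against 22.9% and 24.8% of all tested genes. All 14 called genes were among these 24. Log2 fold changes were below 0 for 30 and above 0 for 14 of the 44. Of the 30 genes that did not pass, 20 had a 95% interval within 1.5-fold either way. The other 10 (Rab3a, Rab3d, Rab19, Rab20, Rab23, Rab32, Rab34, Rab36, Rab38 and Rab39) had wider intervals, which leave room for a larger difference.

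**Figure D1:**
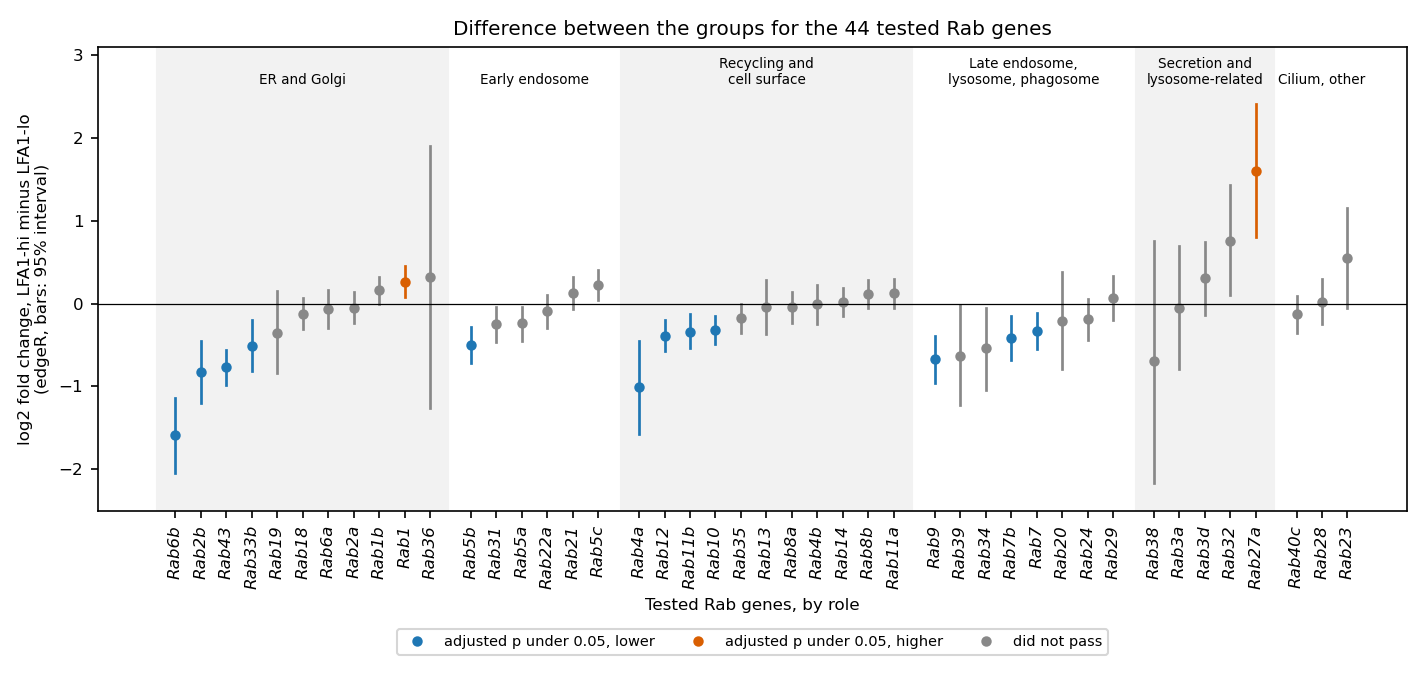
Log2 fold change of each tested Rab gene (vertical axis, LFA1-hi minus LFA1-lo, edgeR) by role along the horizontal axis, where points are estimates and bars 95% intervals. The 12 blue points are the genes that passed as lower, down to -1.59 for Rab6b, the 2 orange points are Rab1 at 0.26 and Rab27a at 1.60, and grey points did not pass.

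The promoters of 5 of these genes are printed because Rab27a and Rab43 changed in opposite directions and because, of the 3 copies of Rab5, which serve the same compartment, Rab5b fell while Rab5a and Rab5c did not pass (-0.24 and 0.22). Each is the 250 bases before the first listed start in RefSeq GRCm38.p6, read 5′ to 3′ on the gene's strand: chr9:73044560-73044809 (+) for Rab27a, chr6:87812165-87812414 (-) for Rab43, chr17:53478984-53479233 (+) for Rab5a, chr10:128696269-128696518 (-) for Rab5b and chr11:100738216-100738465 (-) for Rab5c. None of the 5 overlaps an exon in GENCODE M21, but the RefSeq gene record of Rab5b begins a short way inside its window, so positions for Rab5b count from the listed start and not from the end of the record. Capitals mark the GC box GGGCGG on either strand, a letter string that Sp1-type factors bind, and in Rab5a also TCACGTGA.
Rab27a: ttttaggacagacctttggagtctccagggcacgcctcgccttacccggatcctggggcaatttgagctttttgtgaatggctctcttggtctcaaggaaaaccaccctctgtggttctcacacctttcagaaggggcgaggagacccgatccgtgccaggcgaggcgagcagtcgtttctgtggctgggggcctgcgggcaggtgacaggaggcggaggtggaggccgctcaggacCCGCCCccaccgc
Rab43: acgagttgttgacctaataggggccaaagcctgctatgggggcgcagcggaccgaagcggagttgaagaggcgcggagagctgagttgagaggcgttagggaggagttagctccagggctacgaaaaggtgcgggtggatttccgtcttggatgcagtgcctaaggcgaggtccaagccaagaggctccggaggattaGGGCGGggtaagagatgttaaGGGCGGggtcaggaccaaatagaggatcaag
Rab5a: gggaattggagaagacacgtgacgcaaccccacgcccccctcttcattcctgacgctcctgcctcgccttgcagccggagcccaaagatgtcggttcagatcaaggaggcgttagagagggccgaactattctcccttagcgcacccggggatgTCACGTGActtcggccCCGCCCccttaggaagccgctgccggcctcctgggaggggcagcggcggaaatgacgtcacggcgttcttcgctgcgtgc
Rab5b: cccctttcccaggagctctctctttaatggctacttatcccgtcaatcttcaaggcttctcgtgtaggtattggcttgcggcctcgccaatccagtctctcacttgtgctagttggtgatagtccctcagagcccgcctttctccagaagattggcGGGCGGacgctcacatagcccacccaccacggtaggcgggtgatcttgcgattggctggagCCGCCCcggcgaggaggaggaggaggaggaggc
Rab5c: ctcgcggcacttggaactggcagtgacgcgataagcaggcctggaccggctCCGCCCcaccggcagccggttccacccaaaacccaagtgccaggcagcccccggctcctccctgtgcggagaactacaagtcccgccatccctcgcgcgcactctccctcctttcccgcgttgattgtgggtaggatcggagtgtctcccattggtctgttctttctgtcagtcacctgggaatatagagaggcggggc
The GC box stood 13 bases before the start of Rab27a, 52 and 31 bases before that of Rab43, 80 before Rab5a, 94 and 33 before Rab5b and 199 before Rab5c, so genes of either direction carried it.

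Windows of 300 bases (250 before to 50 after the start) were listed for 48 of the 59 Rab genes, and GGGCGG lay in 34 of them (70.8%), against 9704 of 27025 windows of all genes (35.9%). Among called genes with a window it lay in 8 of 10 that were lower and 2 of 2 that were higher. Rab windows had a median GC content of 61.7%, against 52.7% over all windows, and their median ratio of observed to expected CpG pairs was 0.746 against 0.389. That ratio was at least 0.6 in 86.8% of the 38 windows of tested Rab genes and in 30% of the 10 windows of those not tested. TCACGTGA lay in 3 Rab windows (6.25% against 1.01%), those of Rab5a, Rab21 and Rab24, and in none of a called gene. Of the other letter strings searched on both strands, CACGTG, which is part of TCACGTGA, lay in 5 Rab windows (10.4% against 7.24%), CCAAT in 23 (47.9% against 37.9%), TATAAA and CATGTG in 4 each (8.33%, against 14.2% and 14.1%). The PU.1 string GAGGAAGT and the AP-1 string TGANTCA lay in 2 each (4.17%, against 3.28% and 7.93%), and the E2F strings TTTGGCGC and TTTCGCGC and the NRF1 palindrome in 0, against 0.537%, 0.318% and 0.977% of all windows. A match describes letters in a window and shows no binding.

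Levels of the 59 genes, compared between genes in TPM, spanned from 0 to 604. Mean TPM over the 6 libraries was at least 100 for 12 genes, 10 to 100 for 24, 1 to 10 for 6 and under 1 for 17. Rab7, which drives fusion of late endosomes and phagosomes with lysosomes, was the most abundant at 604 TPM, or 17.1% of all Rab TPM. Next came the early endosome gene Rab5c at 310 TPM, and then Rab1 (Rab1a in RefSeq) at 211, Rab7b and Rab8b at 201 each, Rab14 at 184, Rab31 at 177, Rab1b at 157, Rab32 at 118 and Rab2a at 106 TPM. The library values of all neighbours in this order from Rab1 to Rab2a overlapped, so the order of neighbours is not resolved. Genes further apart in it could be separate, as Rab1 (179 to 245 TPM) and Rab2a (97.8 to 111 TPM) were. The order also pools groups that differ for some of these genes. These 10 genes held 64.3% of the Rab TPM.

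**Figure D2:**
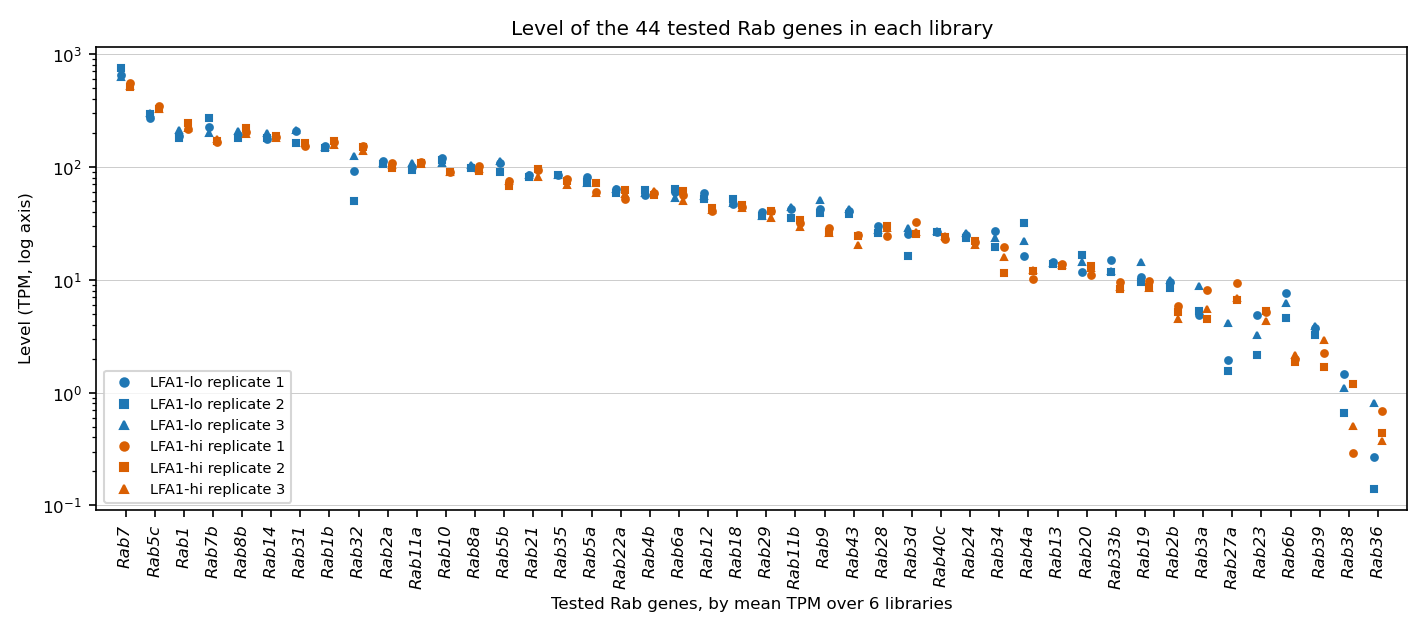
Level of each tested Rab gene in each library (vertical log axis, TPM; genes in order of mean TPM), with blue symbols for LFA1-lo and orange for LFA1-hi replicates. Rab7 stands at 512 to 750 TPM, and LFA1-lo replicate 2 lies at 49.7 TPM for Rab32, whose highest library is at 154 TPM.

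Of the 15 genes that were not tested, 5 had 0 counts in every library (Rab3c, Rab9b, Rab17, Rab27b and Rab30). At these depths a count of 0 allows a level of up to 0.170 to 0.197 CPM. The other 10 (Rab3b, Rab15, Rab25, Rab26, Rab33a, Rab37, Rab39b, Rab40b, Rab42 and Rab44) had at most 19 counts in a library, too few for a comparison. Rab25 and Rab17 are known for epithelia and Rab3b and Rab3c for neurons and endocrine cells. Rab36 and Rab38 were tested with under 10 counts in some library.

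Summed over the 59 genes, the level was 3632, 3606 and 3720 TPM in LFA1-lo replicates 1, 2 and 3 and 3452, 3427 and 3330 TPM in LFA1-hi replicates 1, 2 and 3. Every LFA1-hi library was below every LFA1-lo library, with means of 3653 ± 59.5 and 3403 ± 64.3 TPM (SD, n = 3 each) and a ratio of 0.932 (exact permutation p = 0.1, 2-sided, the smallest that 3 against 3 libraries allow). On summed CPM by library totals, without length correction, the groups overlapped at 4641 ± 132 and 4550 ± 83.8 (SD, n = 3 each), a ratio of 0.981 (exact permutation p = 0.4). By role, the late endosome, lysosome and phagosome genes summed to 983 to 1157 TPM in LFA1-lo and 798 to 847 TPM in LFA1-hi libraries. Most of that role sum was Rab7 and Rab7b, which together averaged 908 TPM in LFA1-lo and 701 TPM in LFA1-hi. The lower total over the 59 genes in LFA1-hi therefore rests largely on Rab7 and Rab7b. The secretion and lysosome-related genes summed to 73.7 to 169 TPM against 180 to 205 TPM, most of it from Rab32. The sums of the ER and Golgi genes overlapped, at 620 to 658 TPM against 621 to 669 TPM.

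Of 13 endoplasmic reticulum and Golgi genes, 11 were tested, 4 fell and 1 rose, with a median log2 fold change of -0.12. Counts by role, here and below, stand beside 15.6% lower and 16.1% higher among all tested genes. Rab6b (chr9:103111667-103185276), a Golgi Rab for retrograde traffic that is best known from neurons, was at 18.6, 11.8 and 15.6 CPM in LFA1-lo replicates 1, 2 and 3 and at 5.14, 4.58 and 5.49 CPM in LFA1-hi replicates 1, 2 and 3. The groups were well apart, and Rab6b fell by 1.59 ± 0.20 on the log2 scale (SE; edgeR adjusted p = 0.000508), or 3.02-fold, the largest fall among the Rab genes. Its paralog Rab6a, with the same Golgi role, was at 97.9 ± 11.2 and 93.7 ± 7.47 CPM (SD, n = 3 each) and did not pass (log2 fold change -0.06, 95% interval -0.30 to 0.17). Rab2b (chr14:52261759-52279395), which acts at the Golgi, was at 13.2, 12.3 and 13.8 CPM in LFA1-lo and 8.50, 7.20 and 6.44 CPM in LFA1-hi libraries. The groups did not overlap, and Rab2b fell by 0.83 ± 0.17 (SE; adjusted p = 0.00539). Its gene shares 250 bases with Tox4, which also fell (-0.31, adjusted p = 0.0151), and whether reads were counted by strand is not given in the sources used here. Rab2a, the abundant copy, was at 112, 111 and 110 CPM against 114, 98.4 and 110 CPM, and did not pass (-0.05, 95% interval -0.23 to 0.14).

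Rab43 (chr6:87788853-87812164), a Golgi Rab also known from phagosomes, was at 93.5, 91.1 and 98.2 CPM against 60.1, 55.9 and 49.8 CPM, with the groups far apart for their spread. It fell by 0.77 ± 0.09 (SE; adjusted p = 0.000386), or 1.71-fold. Rab33b (chr3:51483966-51496228), a Golgi Rab that binds the autophagy protein Atg16l1, was at 26.4, 21.8 and 21.4 CPM against 17.9, 14.8 and 16.2 CPM. All LFA1-hi libraries were below all LFA1-lo libraries, and it fell by 0.51 ± 0.14 (SE; adjusted p = 0.0203). That call was lost without LFA1-hi replicate 2 (0.0957) or 3 (0.0755) or LFA1-lo replicate 1 (0.0770), in a range of 0.00589 to 0.0957 over 18 other fits. Rab1 (chr11:20201412-20226856), needed for transport from endoplasmic reticulum to Golgi, was at 248, 249 and 287 CPM against 304, 327 and 310 CPM. It rose by 0.26 ± 0.08 (SE; adjusted p = 0.0352), or 1.20-fold. The call was lost without LFA1-hi replicate 1 (0.0803), 2 (0.136) or 3 (0.1002) or LFA1-lo replicate 1 (0.114) and on TPM (0.0837), in a range of 0.0102 to 0.136 over 18 other fits. Rab1b, which shares the role, was at 134, 136 and 132 CPM against 154, 151 and 144 CPM. Its groups did not overlap but it did not pass (0.16, 95% interval 0.00 to 0.32, adjusted p = 0.121), except with library totals (0.0411).

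All 6 early endosome genes were tested, 1 fell and none rose, with a median log2 fold change of -0.17. Rab5 recruits the machinery that fuses incoming vesicles, and mice have 3 copies of it. Rab5b (chr10:128677170-128696284) was at 175, 153 and 182 CPM in LFA1-lo and 126, 109 and 127 CPM in LFA1-hi libraries, and it fell by 0.50 ± 0.10 (SE; adjusted p = 0.00442). Its gene shares 397 bases with Pmel, which had at most 10 counts in a library. Rab5c, the most abundant of the 3, was at 254, 284 and 283 CPM against 336, 302 and 317 CPM. All LFA1-hi libraries were above all LFA1-lo libraries, with a log2 fold change of 0.22 ± 0.08 (SE) that did not pass (adjusted p = 0.0592). Rab5c passed without LFA1-lo replicate 2 (0.0101), in a range of 0.0101 to 0.202 over 18 other fits. With all 6 libraries it passed with library totals (0.0190), upper-quartile scaling (0.0466) and the filter of 10 CPM in 3 libraries (0.0478). Rab5a was at 95.2, 89.5 and 85.6 CPM against 72.8, 83.7 and 72.1 CPM, also without overlap, at -0.24 ± 0.09 (SE; adjusted p = 0.0715). Leaving out LFA1-lo replicate 2 made Rab5a pass (0.0373), in a range of 0.0373 to 0.239. The counts of Rab5a were not whole in 5 libraries, as happens where RSEM divides reads between genes. Rab31, which acts between Golgi and endosomes, was at 366, 303 and 379 CPM against 288, 289 and 305 CPM. Its groups overlapped through LFA1-lo replicate 2, and it was at -0.25 ± 0.09 (SE; adjusted p = 0.0682). Without that library Rab31 was at -0.34 (0.000392), in a range of 0.000392 to 0.209. Rab21 and Rab22a did not pass.

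Of 14 recycling and cell surface genes, 11 were tested, 4 fell and none rose, with a median of -0.04. Rab4a (chr8:123805846-123835291), which returns receptors quickly from early endosomes to the surface, was at 10.5, 21.7 and 14.4 CPM in LFA1-lo and 6.99, 7.83 and 8.23 CPM in LFA1-hi libraries. LFA1-lo replicate 2 was the highest library and the groups did not overlap. Rab4a fell by 1.01 ± 0.25 (SE; adjusted p = 0.0145), or 2.02-fold. The call was lost without LFA1-hi replicate 1 (0.0688) or 2 (0.0563), in a range of 0.00109 to 0.0688 over 18 other fits, and the log2 fold change was -0.70 without LFA1-lo replicate 2. Rab4b did not pass, at 31.4 ± 2.37 against 31.2 ± 1.98 CPM (SD, n = 3 each; 95% interval of the log2 fold change -0.25 to 0.23).

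Rab12 (chr17:66494512-66519750), which sends recycling receptors to lysosomes, was at 57.1, 53.2 and 54.3 CPM against 41.8, 42.1 and 42.1 CPM. It fell by 0.39 ± 0.08 (SE; adjusted p = 0.00716), with LFA1-hi libraries that hardly varied. Rab11b (chr17:33742484-33760486), a recycling endosome Rab, was at 134, 118 and 142 CPM against 106, 108 and 98.4 CPM, and it fell by 0.34 ± 0.09 (SE; adjusted p = 0.0196). The call was lost without LFA1-hi replicate 1 (0.0684), 2 (0.0637) or 3 (0.0970), without LFA1-lo replicate 1 (0.0637) and with library totals (0.0585), in a range of 0.000387 to 0.0970 over 18 other fits. Rab10 (chr12:3247428-3309969), which carries cargo to the surface, was at 215, 217 and 195 CPM against 168, 163 and 171 CPM. It fell by 0.32 ± 0.08 (SE; adjusted p = 0.0112), and the call was lost without LFA1-hi replicate 1 (0.0506) or 2 (0.0661), in a range of 0.00136 to 0.0661. A noncoding RNA, Rab10os, overlaps 2947 bases of its gene and had 45 to 78 counts.

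The other 7 tested genes of recycling and surface traffic did not pass. Rab8b, which serves secretion to the surface, was at 475, 467 and 521 CPM against 530, 549 and 510 CPM, with overlapping groups and a log2 fold change of 0.12. Rab14, found on endosomes, Golgi and phagosomes, was at 274, 292 and 314 CPM against 302, 292 and 297 CPM, a difference smaller than the spread within LFA1-lo. The remaining 5 (Rab4b, Rab8a, Rab11a, Rab13 and Rab35) lay between -0.18 and 0.13.

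Of 11 late endosome, lysosome and phagosome genes, 8 were tested, 3 fell and none rose, with a median of -0.38. Rab9 (chrX:166457251-166479867), which returns mannose 6-phosphate receptors from late endosomes to the Golgi, was at 28.4, 27.3 and 34.2 CPM in LFA1-lo and 20.3, 17.8 and 18.3 CPM in LFA1-hi libraries. It fell by 0.67 ± 0.13 (SE; adjusted p = 0.00395), or 1.59-fold. Rab7b (chr1:131688681-131715443), which links late endosomes to the Golgi, was at 283, 353 and 253 CPM against 219, 213 and 232 CPM. All LFA1-hi libraries were below all LFA1-lo libraries, and LFA1-lo replicate 2 was the highest. Rab7b fell by 0.42 ± 0.12 (SE; adjusted p = 0.0241), and by 0.27 without LFA1-lo replicate 2. The call was lost without LFA1-hi replicate 1 (0.0915), 2 (0.102) or 3 (0.0619) or LFA1-lo replicate 1 (0.0516), in a range of 0.00487 to 0.102 over 18 other fits.

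Rab7 (chr6:87999106-88045270) was at 690, 833 and 673 CPM against 618, 544 and 581 CPM, again highest in LFA1-lo replicate 2 and without overlap. It fell by 0.33 ± 0.10 (SE; adjusted p = 0.0289), or 1.26-fold. The call was lost without LFA1-hi replicate 1 (0.0613), 2 (0.133) or 3 (0.104), in a range of 0.0103 to 0.133 over 18 other fits, and the fall was 0.23 without LFA1-lo replicate 2. Rab34 and Rab39, both linked to the maturation of phagosomes, did not pass, at -0.54 ± 0.22 (adjusted p = 0.0891) and -0.63 ± 0.27 (adjusted p = 0.105; SE for both). Rab34 passed without LFA1-lo replicate 2 (0.0254) and with a replicate block (0.0371), in a range of 0.0254 to 0.260. Rab20, Rab24 and Rab29 did not pass.

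Of 11 secretion and lysosome-related genes, 5 were tested and 1 rose, with a median of 0.31. Rab27a (chr9:73044810-73097623) was at 2.98, 2.49 and 6.58 CPM in LFA1-lo and 15.4, 10.2 and 11.2 CPM in LFA1-hi libraries. The lowest LFA1-hi library was above the highest LFA1-lo library, replicate 3. Rab27a rose by 1.60 ± 0.36 on the log2 scale (SE; adjusted p = 0.00937), or 3.04-fold, and by 2.16 without LFA1-lo replicate 3, the highest of its group, and 1.36 without replicate 2, the lowest. Its close relative Rab27b had no count. Rab32, which sorts cargo into lysosome-related organelles, was at 91.1, 52.1 and 126 CPM against 162, 150 and 146 CPM. The groups did not overlap, but LFA1-lo libraries were widely spread, and Rab32 did not pass (0.76 ± 0.28, SE; adjusted p = 0.0786). The log2 fold change was 0.49 with LFA1-lo replicate 2 left out (adjusted p = 0.0127) and 1.09 with LFA1-lo replicate 3 left out (0.0129). The gene also passed in DESeq2 (0.00766) and without robust fitting (0.0474), in a range of 0.00766 to 0.188 over 18 other fits. Its relative Rab38 was near the floor, at 0.224 to 1.07 CPM. Rab3a and Rab3d, Rabs of regulated secretion, overlapped between groups and did not pass.

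Of the 4 genes with roles at the cilium or elsewhere, 3 were tested and none passed. Rab23, a regulator of Hedgehog signalling at the cilium, was at 11, 4.98 and 7.34 CPM against 12.2, 11.9 and 10.1 CPM, lowest in LFA1-lo replicate 2. It did not pass (0.55 ± 0.26, SE; adjusted p = 0.145) except without LFA1-lo replicate 1 (0.88, adjusted p = 0.0288), in a range of 0.0288 to 0.316 over 18 other fits. Rab28 and Rab40c lay at 0.02 and -0.13.

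LFA1-lo replicate 2 was the lowest or the highest of the 3 LFA1-lo libraries for several Rab genes. Its TPM was 0.461 times the mean of the other 2 for Rab32, 0.504 times for Rab27a and 0.522 times for Rab23. For Rab27a, LFA1-lo replicates 1, 2 and 3 were at 1.94, 1.54 and 4.17 TPM, so replicate 3 was the one apart. For Rab23 they were at 4.91, 2.13 and 3.25 TPM, spread over all 3. The TPM of replicate 2 was 1.67 times the mean of the other 2 for Rab4a, 1.27 times for Rab7b and 1.17 times for Rab7. Replicate 2 was also the library in which the osteoclast list was highest, whose part in these values was not tested.

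Within subfamilies of close copies, the share of each copy in the summed TPM was compared over 16 subfamilies. Groups did not overlap in 7 of them, each at an exact permutation p of 0.1, 2-sided, the smallest that 3 against 3 libraries allow (0.229 after Benjamini-Hochberg adjustment over the 16). Each subfamily entered with the smallest p of its copies. The shares of Rab9 and Rab27a could not differ, at 100% of their subfamilies in every library. As a measure of the background, groups did not overlap in CPM for 47.8% of all tested genes. Rab6b made up 11.2, 6.72 and 10.7% of Rab6 TPM in LFA1-lo and 3.42, 2.96 and 4.10% in LFA1-hi libraries. Rab2b made up 7.88 ± 0.440% of Rab2 TPM in LFA1-lo and 4.74 ± 0.573% in LFA1-hi, and Rab4a 27.7 ± 5.80% and 16.4 ± 1.37% of Rab4 TPM (SD, n = 3 each). In each of these pairs the less abundant copy was the one with the lower share in LFA1-hi.

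The 3 copies of Rab5 summed to 468 ± 16.1 TPM in LFA1-lo and 467 ± 9.73 TPM in LFA1-hi (SD, n = 3 each). Rab5b went from 22.1 ± 1.95% to 15.5 ± 0.875% of the sum and Rab5c from 61.7 ± 2.56% to 71.0 ± 0.991%, both without overlap (SD, n = 3 each), while the share of Rab5a overlapped at 16.2 ± 1.32% and 13.5 ± 1.64% (exact permutation p = 0.2). Rab11b, again the less abundant copy, was at 28.7 ± 1.15% and 22.6 ± 0.899% of Rab11 TPM, and Rab8a at 34.2 ± 0.843% and 31.7 ± 2.03% of Rab8 TPM, where the groups were barely apart. Rab38 was at 1.25% and 0.450% of the sum with Rab32, which rests on few counts of Rab38. Rab7 and Rab7b, in contrast, kept overlapping shares (74.7 ± 1.19% and 75.7 ± 1.17% Rab7; exact permutation p = 0.4) while their sum was 908 ± 98.6 and 701 ± 20.4 TPM (SD, n = 3 each). In Rab5c, Rab7, Rab13, Rab18, Rab27a, Rab34 and Rab43, the genes whose mean transcript length weighted by abundance varied between libraries, that length overlapped between the groups.

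**Figure D3:**
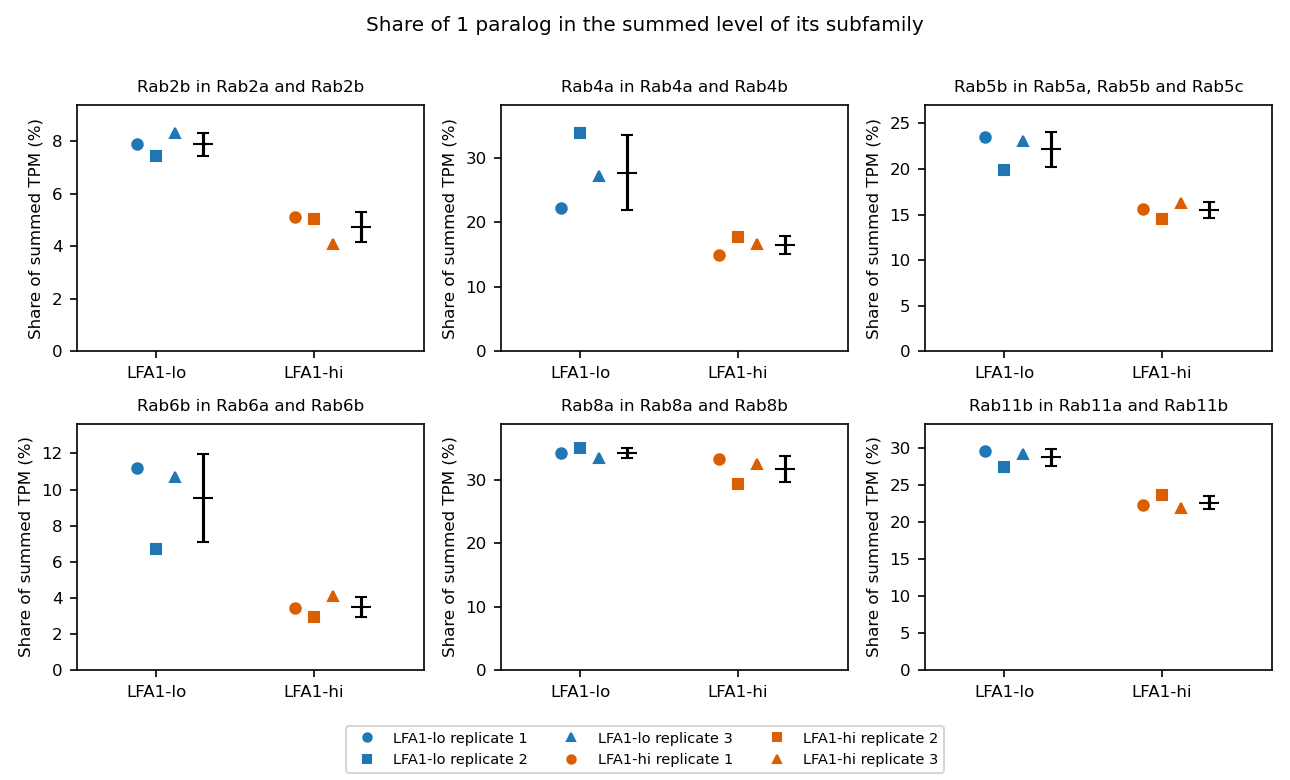
Share of a paralog in the summed TPM of its subfamily (vertical axes, percent, from 0) in each library of 6 subfamilies, with the mean and SD in black. Rab6b, Rab2b, Rab4a, Rab5b and Rab11b lie lower in all 3 LFA1-hi libraries, and the Rab8a shares nearly touch at 33.4% and 33.2%.

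Genes that load, switch off or read Rab proteins were taken from 7 lists with 138 genes in all. Of the 123 tested, 28 were lower and 7 higher in LFA1-hi, beside 15.6% and 16.1% of all tested genes, with a median log2 fold change of -0.14. Without LFA1-lo replicate 2, 42 were lower and 11 higher, against backgrounds of 20.5% and 21.8%. Without LFA1-hi replicate 2 there were 17 lower and 5 higher (9.21% and 9.97%), and without LFA1-hi replicate 1 there were 19 lower and 4 higher (9.84% and 9.81%). For the counts of each list below, the background in the main fit is likewise 15.6% lower and 16.1% higher.

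Of 8 genes that prenylate Rab proteins or extract them from membranes, all were tested and 2 fell. Rabac1, which helps Rab proteins onto membranes, fell by 0.37 (adjusted p = 0.0376), a call lost without LFA1-hi replicate 1 (0.151) or 2 (0.138) or LFA1-lo replicate 1 (0.124), with library totals (0.0736) and with a replicate block (0.0617), in a range of 0.0135 to 0.151. Of 37 exchange factors tested, 11 fell and 2 rose. Rin3, which activates Rab5 and Rab31, fell by 0.61 (adjusted p = 0.00283), and Madd, an exchange factor for Rab3 and Rab27, fell by 0.59 (0.00704). Dennd1c, of the DENN family, fell by 0.59 (0.0292), but passed in 1 of the 6 fits that left out a library (adjusted p from 0.00087, without LFA1-lo replicate 2, to 0.116). Dennd2a, an exchange factor for Rab9, was the largest rise of the partners at 1.49 ± 0.33 (SE; adjusted p = 0.0108).

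Of 31 tested GAPs of the TBC family, 8 fell and 2 rose. The largest falls were Tbc1d4 (also AS160, which acts on Rab10 in insulin-responsive cells) at -1.22 ± 0.26, Tbc1d8 at -0.92 ± 0.14, Tbc1d12 at -0.83 ± 0.17 and Tbc1d17 at -0.73 ± 0.16 (SE; adjusted p = 0.00879, 0.00112, 0.00535 and 0.00913). The call for Tbc1d17 was lost without LFA1-hi replicate 2 (0.0518), in a range of 1.45e-05 to 0.0518 over 18 other fits.

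Among effectors of endosomes and recycling, 3 of 19 tested fell and 1 rose, a share of falls near the 15.6% of all tested genes. Rab11fip5, which binds Rab11, fell by 0.98 ± 0.07 (SE; adjusted p = 3.54e-05), from 181 ± 3.51 to 91.8 ± 3.51 CPM (SD, n = 3 each). Rabep1, a Rab4 and Rab5 effector, fell by 0.50 (0.00329) and Ehbp1l1, a Rab8 effector, by 0.30 (0.0210), while Eea1, the Rab5 tether of early endosomes, rose by 0.32 (0.0344). The call for Ehbp1l1 was lost without LFA1-hi replicate 1 (0.0819), 2 (0.0750) or 3 (0.0885), in a range of 0.00684 to 0.0885. The call for Eea1 was lost without LFA1-hi replicate 1 (0.109), 2 (0.125) or 3 (0.0790) or LFA1-lo replicate 3 (0.0596) and on TPM (0.0931), in a range of 0.0153 to 0.125.

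Among effectors of late endosomes and lysosomes, 3 of 15 fell and 1 rose. Wdr91, which binds Rab7, fell by 0.83 ± 0.11 (SE; adjusted p = 0.000545), Rilpl2, a binder of Rab proteins phosphorylated by Lrrk2, by 0.62 (0.00438), and Vps39, the HOPS subunit that binds Rab7, by 0.58 (0.00832). Osbpl1a, a Rab7 effector that senses cholesterol, rose by 0.43 (0.0189). The call for Vps39 was lost without LFA1-hi replicate 2 (0.0519; range 8.33e-05 to 0.0519), and that for Osbpl1a without LFA1-hi replicate 2 (0.0778) or 3 (0.0764) and on TPM (0.0519; range 0.00825 to 0.0778). Of 10 Golgi effectors 1 fell, the golgin Golga4 at -0.26 (0.0237), a call lost without LFA1-hi replicate 1 (0.0822), 2 (0.0863) or 3 (0.104) or LFA1-lo replicate 1 (0.0764), with library totals (0.0716) and with a replicate block (0.0617), in a range of 0.0068 to 0.104.

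Of 14 secretion effectors, which link Rab3 and Rab27 to exocytosis, 3 could be tested and Sytl3, Myrip and Rims1 were at 0 in every library. Myo7a, an unconventional myosin of the Rab27 transport complex, rose by 0.76 ± 0.12 (SE; adjusted p = 0.00131), from 73.9 ± 12 to 125 ± 3.53 CPM (SD, n = 3 each). It was the 1 member of the list that passed, and Rab27a the 1 Rab of secretion that did. Madd, the exchange factor for Rab3 and Rab27, went the other way (-0.59), and a link between these changes was not tested.

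**Figure D4:**
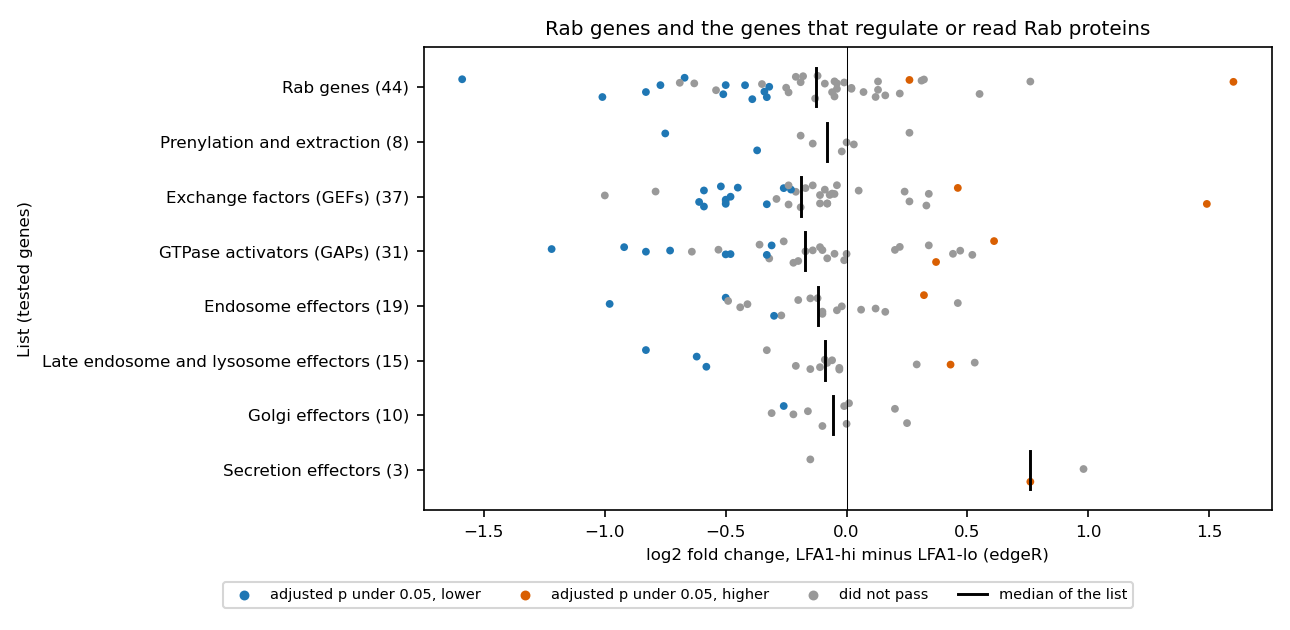
Log2 fold changes (horizontal axis, LFA1-hi minus LFA1-lo, edgeR) of the tested Rab genes and of 7 lists of regulators and effectors, 1 point per gene, with the median of each list as a black bar. Medians lie between -0.19 for exchange factors and -0.06 for Golgi effectors, except for the 3 secretion effectors at 0.76.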

How the data were processed

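RNA of 6 libraries was sequenced after removal of ribosomal RNA, per the labels' protocols. Read processing with bcl2fastq, Trim Galore and RSEM on GRCm38 is named in the submitters' processing notes, without versions. The sources used here give no aligner, annotation release or strand setting. Per the file headers, the deposited tables hold expected counts (RSEM estimates, not normalized) and TPM values (scaled by effective length to a total of 1000000). The deposited gene length (in bases), per the file headers, was used for transcript length.

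Expected counts were rounded, filtered with filterByExpr and scaled by TMM. The groups were compared in edgeR 4.0.16 on R 4.3.3 (quasi-likelihood, robust), and p-values were adjusted by Benjamini-Hochberg over the 11692 genes that were tested, at 0.05. The filter keeps a gene on its counts alone. CPM values use TMM-scaled totals unless stated otherwise. Sums and shares of TPM were tested by exact permutation, and scipy 1.17.1 gave the adjustment over subfamilies. Python 3.11.15, pandas 2.3.3, numpy 2.4.6, matplotlib 3.10.9, limma 3.58.1 and DESeq2 1.42.0 served for the rest, and the fits were tested on simulated data. Transcript accessions tied 57 of the 59 genes to RefSeq and symbols the other 2.

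Members, roles and lists were chosen with earlier results of these data known. Every Rab gene could be named, with all values for those that passed and the 10 most abundant. Up to 4 passing genes of each partner list are named, those that changed most among genes at a mean of 1 CPM or more, and some genes that this takes are not reported here. The 20 alternatives were scaling by RLE, by upper quartile or by library totals, dropping the filter or asking for 10 CPM in 3 libraries, counts without rounding, a fit that is not robust, DESeq2, voom, limma-trend on TPM (log2 with 0.1 or 1 added), a replicate block, each library left out, a test against a 1.5-fold change and a threshold of 0.01. Ranges over 18 fits leave out those last 2.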

Additional observations from a re-analysis of the deposited data

How the results depend on the processing

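The median log2 fold change of the Rab genes (-0.125) stayed below 0 under each alternative that recomputes it, at -0.061 with library totals alone, and the count of genes whose groups did not overlap stayed within 1.5 times. Against 2 Rab genes higher and 12 lower in LFA1-hi, library totals alone gave 4 higher, limma-trend on TPM + 0.1 and on TPM + 1 gave 1 higher each, the test against a 1.5-fold change gave 0 higher and 1 lower (Rab6b), and a threshold of 0.01 gave 1 higher and 6 lower. Against 7 partner genes higher and 28 lower, these gave 11 higher (library totals), 4 higher (each limma-trend fit), 0 higher and 1 lower (1.5-fold), and 2 higher and 18 lower (0.01). Without 1 library the Rab counts ran from 1 to 4 higher and from 6 to 15 lower, and the partner counts from 4 to 11 and from 17 to 42. Fewer samples enter those fits, and the spread is estimated over both groups in every edgeR fit, the main one included. The highest of these counts, 4 and 15 Rab genes and 11 and 42 partner genes, all came without LFA1-lo replicate 2. For the summed TPM of Rab members the ratio was 0.932, for summed CPM 0.981, and without 1 library the ratio of TPM ran from 0.925 to 0.942. The cause of these changes was not tested.

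The labels do not say if the replicate numbers pair the libraries. Deviations of same-numbered libraries from their group means correlated at 0.0459, 0.0130 and -0.101, which cannot decide it with 3 libraries in each group. With a replicate block, 1 Rab gene was higher and 12 lower, Rab7 (0.0618) and Rab1 (0.0637) no longer passed, and Rab34 did (0.0371). The largest shift of the median over all genes by a scaling was 0.062 (library totals), which kept the direction of every Rab gene named as changed. Over the Rab genes, 813 values under an alternative kept their call and direction, 47 lost the call, 14 gained one, and none reversed after being called. Depth limits the 15 Rab genes that were not tested and wide intervals such as those of Rab36 and Rab38.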
